A study of Mus musculus with 360 samples.

Results

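Unheated C1498 cells are the 51 cells of this experiment that had not been exposed to 45 °C when they were picked, out of 360 cells sequenced. They were chosen by their labels alone and by no measured value. C1498 is described by the submitters as a mouse acute myeloid leukemia line, and as background it has also been described as a line with features of natural killer T cells. In the 37 °C arm, where the line was treated at 37 °C in place of 45 °C as the control, cells were picked 1 h before that treatment (11 cells) and after it, with 11 cells 1 h later, 6 cells 5 h later, 6 cells 10 h later and 11 cells 15 h later. The remaining 6 cells belonged to the 45 °C arm and were picked 1 h before its heating for 10 min. All cells came from 1 established line with no engineered allele named in the labels, and each had been watched under a microscope and lifted by an automated picking instrument. No label names a culture, a clone or a day, so each of the 6 groups was read as 1 sample. No p-value was therefore computed, and intervals below cover counting error only.

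Blood cells are usually told apart by small sets of RNAs. T cells carry the CD3 chains, which hold the T cell receptor at the membrane and pass its signal to kinases such as Lck and Zap70. Natural killer cells lack that receptor and carry killer cell lectin-like receptors and the granule proteins granzyme and perforin. Myeloid cells depend on the factors PU.1 (Spi1) and C/EBPα (Cebpa) and fill their granules with proteins such as myeloperoxidase (Mpo) and lysozyme (Lyz2).

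RNA was counted as unique molecular identifiers (UMIs), 1 for each captured RNA tail. Levels are given as CPM (counts per 1000000 UMIs), the UMIs of a gene summed over cells and divided by all UMIs of those cells. The 51 cells held 1912180 UMIs in all, with a lowest of 7759, a median of 34720 and a highest of 91095 UMIs per cell. Of 24781 genes in the table, 11212 had a UMI, 7426 (29.97%) reached 10 CPM and 1656 (6.68%) reached 100 CPM. For a gene with no UMI, 3 counts over the 51 cells correspond to 1.57 CPM, a limit for counting error only. Genes that most cell types use, such as Cd63 and Cd81, were also at 0, so a 0 below means no UMI in the table and sets no limit on the RNA in the cells. Counts on the strand of the gene cannot be told from counts of an overlapping gene on the other strand, as for Cd247 and Pou2f1, Coro1a and Bola2, or Arhgdib and Pde6h. No 2 cells were identical. Cell 11 of the 37 °C arm at 15 h stood apart from the others. It had the fewest UMIs, and its median correlation with the other cells was 0.529, while every other cell had at least 0.778. With all cells thinned to 5000 UMIs its median correlation was 0.453 against at least 0.576. Results that rest on it are given with and without it.

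The marker genes of the line were read first. Ptprc, the leukocyte surface phosphatase CD45, was found in all 51 cells at 502 CPM (95% Poisson interval 470 to 534). Its 6 group values lay between 482 and 512 CPM with a median of 500 CPM. Coro1a, an actin regulator of blood cells, stood at 1144 CPM (1097 to 1193), with group values of 939 to 1233 CPM. Among 25 general leukocyte genes, 20 reached 10 CPM (80%, against 29.97% of all genes) and 12 reached 100 CPM. After Coro1a, the highest were the GTPase regulator Arhgdib at 844 CPM and the GTPase gene Rac2 at 522 CPM. The actin bundler Lcp1 had 309 CPM and the lysosomal membrane gene Laptm5 had 308 CPM. The small surface glycoprotein Cd52 and the sialophorin gene Spn were at 0.

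**Figure D1:**
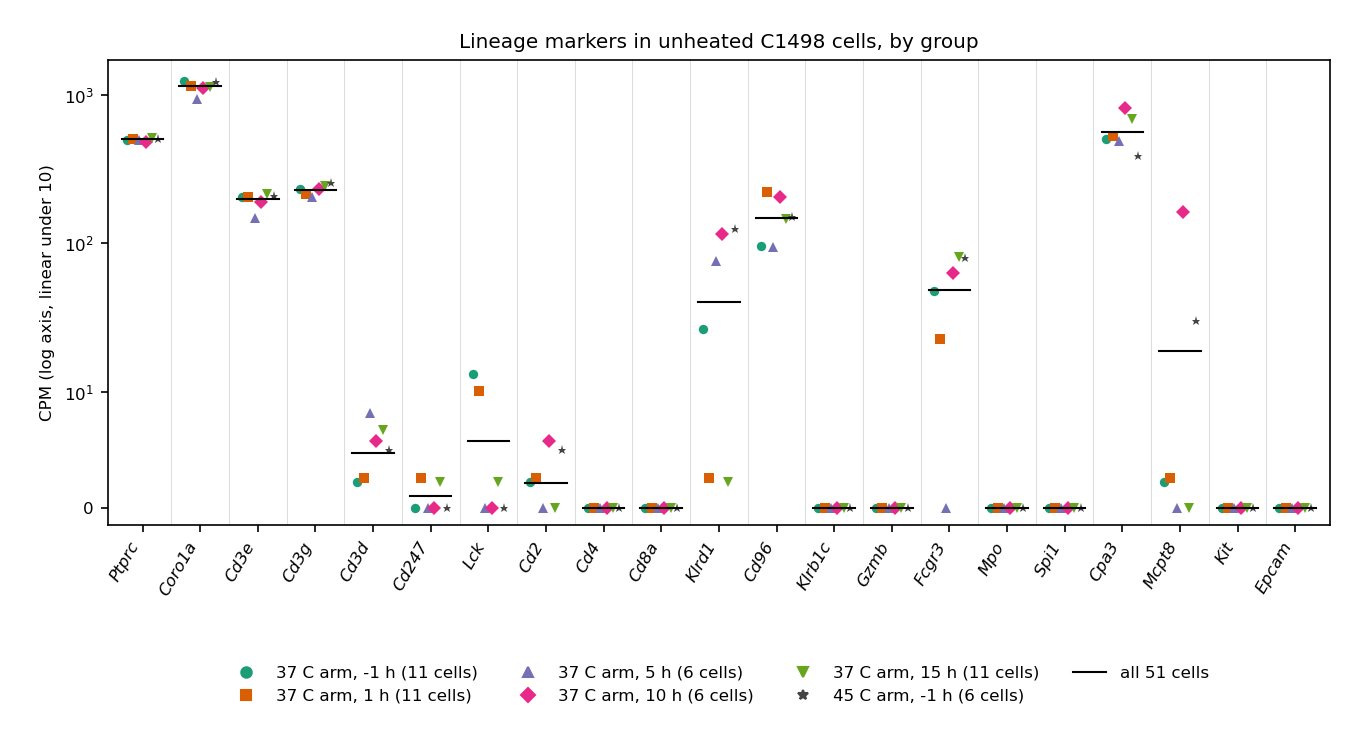
Level of 21 lineage markers in CPM (vertical axis, log scale that is linear under 10 CPM) in each of the 6 unheated groups (symbols) and over all 51 cells (black lines). Ptprc, Coro1a, Cd3e, Cd3g and Cpa3 were present in every group, Klrd1, Fcgr3 and Mcpt8 varied widely between groups, and Kit, Epcam and Mpo lay at 0.

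Of 38 genes of the T cell receptor complex and its signaling, 14 reached 10 CPM (36.8%, against 29.97% of all genes) and 11 were at 0 (28.9%, against 54.8%). Cd3g stood at 230 CPM (209.1 to 253), with group values of 205.1 to 254.5 CPM, and had a UMI in 49 of 51 cells. Cd3e stood at 199.2 CPM (180 to 220) and had a UMI in all 51 cells. The lowest of its 6 group values was 147.7 CPM, the median 204.8 CPM and the highest 215.7 CPM. Both genes were thus found in every group, and Cd3e was lowest in the 37 °C arm at 5 h. The other CD3 chains did not reach such levels. Cd3d stood at 4.71 CPM (2.15 to 8.93), which was 9 UMIs against 440 for Cd3g. Cd247, the zeta chain that carries most of the signaling motifs of the receptor, had 2 UMIs.

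Downstream of the receptor, the Ras activator Rasgrp1 stood at 190 CPM (170 to 210) and the adaptor Grap2 at 99.6 CPM. The Src-family kinase Fyn was at 71.1 CPM and the kinase C isoform Prkcq at 63.5 CPM. The membrane adaptor Lat was at 54.4 CPM and the kinase Zap70 at 29.5 CPM. Several central partners of these proteins were low or at 0. Lck, the kinase that starts CD3 signaling, was at 5.75 CPM (2.87 to 10.3) and the adaptor Lcp2 at 6.28 CPM. Plcg1, Cd4, Cd8a, Cd8b1, Cd5 and Cd6 were at 0, and Cd2 had 2.09 CPM. The constant segments of the T cell receptor chains were not analysed here.

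The genes Cd3g, Cd3d and Cd3e lie within 40056 bases of chromosome 9 (GRCm38, GENCODE M21 annotation), with Cd3g at chr9:44969572-44980431 and Cd3e at chr9:44998740-45009627, both on the minus strand, and Cd3d between them at chr9:44981786-44987339 on the plus strand. The starts of Cd3g and Cd3d are 1355 bases apart and face away from each other, while Cd3g was the highest of the T cell list and Cd3d was under 10 CPM. For this reason the 250 bases before the start of each of these genes, and of Cpa3 described below, are shown from RefSeq (GRCm38.p6), 5′ to 3′ on the strand of the gene. Capitals mark every match, on either strand, to 6 motifs. They were AGATAA for factors of the GATA family, TGTGGT for RUNX factors, CTTTGA for TCF/LEF factors, AGGAAG for ETS factors, CAGNTG for E proteins and TATAAA for the TATA box. None of these motifs overlapped another in these windows.
Cd3g, chr9:44980432-44980681, minus strand: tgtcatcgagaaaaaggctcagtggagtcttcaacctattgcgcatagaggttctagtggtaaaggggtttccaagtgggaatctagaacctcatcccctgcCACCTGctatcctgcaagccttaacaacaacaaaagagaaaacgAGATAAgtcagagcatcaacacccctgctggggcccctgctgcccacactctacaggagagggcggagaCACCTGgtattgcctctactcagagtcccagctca
Cd3d, chr9:44981536-44981785, plus strand: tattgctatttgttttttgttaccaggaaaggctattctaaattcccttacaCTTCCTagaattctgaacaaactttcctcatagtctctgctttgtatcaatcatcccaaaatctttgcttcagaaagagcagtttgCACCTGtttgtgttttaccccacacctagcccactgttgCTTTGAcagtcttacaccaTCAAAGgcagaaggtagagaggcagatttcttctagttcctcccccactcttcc
Cd3e, chr9:45009612-45009861, minus strand: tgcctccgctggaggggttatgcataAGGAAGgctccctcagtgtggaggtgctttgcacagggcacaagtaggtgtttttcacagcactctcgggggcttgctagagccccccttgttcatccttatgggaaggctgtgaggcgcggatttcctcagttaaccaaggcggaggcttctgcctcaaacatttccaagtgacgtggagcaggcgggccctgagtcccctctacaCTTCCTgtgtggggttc
Cpa3, chr3:20242182-20242431, minus strand: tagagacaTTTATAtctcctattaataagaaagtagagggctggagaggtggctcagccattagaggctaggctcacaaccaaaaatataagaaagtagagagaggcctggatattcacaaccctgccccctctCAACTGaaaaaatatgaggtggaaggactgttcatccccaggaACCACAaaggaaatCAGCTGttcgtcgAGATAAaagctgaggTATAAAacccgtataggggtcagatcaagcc
The Cd3g window held 1 GATA and 2 E protein matches, and the Cd3d window held 2 TCF/LEF matches, 1 ETS match and 1 E protein match. The Cd3e window held 2 ETS matches. For Cd3e the RefSeq and GENCODE starts differ. The window, from base 45009612, reaches into the GENCODE gene, which starts at base 45009627, and most of the second match lies there. Over 32851 RefSeq windows of the same length, 9.99% held the GATA letters, 13.8% TCF/LEF, 29.5% ETS and 44.8% E protein. A match describes letters only. The factors that read such letters were present at different levels: Gata3 at 231 CPM, the TCF/LEF genes Tcf7 at 452 CPM and Lef1 at 41.3 CPM, the ETS genes Elf1 at 80.5 CPM and Fli1 at 77.9 CPM, and the E protein genes Tcf3 at 40.3 CPM and Tcf12 at 21.96 CPM.

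Few natural killer genes reached 10 CPM. Of 38 natural killer and cytotoxic genes, 5 did (13.2%, against 29.97% of all genes). At 0 were 23 of them (60.5%, near the 54.8% of all genes). The adhesion receptor Cd96, which binds CD155 on other cells, led with 149.04 CPM (132.2 to 167.4) and group values of 94.3 to 222.4 CPM. Srgn, the proteoglycan core of secretory granules, stood at 96.7 CPM (83.3 to 111.7). The granule proteins themselves were not seen: Gzma, Gzmb, Gzmk, Gzmm and Prf1 were at 0, as were Klrb1c (NK1.1), Ncr1, Il2rb and Ifng. Nkg7 had 1.046 CPM. Cd160, a receptor of natural killer and T cells for MHC class I and HVEM, stood at 290 CPM (267 to 315) and had a UMI in all 51 cells. Of the genes that define natural killer T cells, Zbtb16, which encodes the factor PLZF, and Tbx21 were at 0. Cd1d1, the molecule that presents lipid antigens to such cells, had 3 UMIs, all in 1 cell.

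Myeloid genes were mostly at 0. Of 43 genes, 36 were at 0 (83.7%, against 54.8% of all genes) and 2 reached 10 CPM. Mpo, Elane, Lyz2, Spi1, Cebpa, Csf1r, Itgam, Tyrobp and Fcer1g were all at 0. The 2 exceptions were Fc receptors. Fcgr3, the low-affinity receptor CD16, stood at 48.99 CPM (39.7 to 60.2), with a lowest group at 0, a median of 55.6 CPM and a highest group of 80.9 CPM. Fcgr1, the high-affinity receptor CD64, stood at 18.8 CPM (13.2 to 26.1). Fcer1g, the signaling chain with which both are known to pair, was at 0. The defining markers of myeloid cells were thus at 0 in cells labelled as myeloid leukemia, and the cells are described here by the line's name.

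Among the remaining lineages, Cpa3 stood out by level. Cpa3, a carboxypeptidase stored in mast cell granules, had 565 CPM (532 to 600) and a UMI in all 51 cells. Its groups ranged from 387 to 811 CPM with a median of 516 CPM. No other mast cell gene was found at such a level. Mcpt8, a basophil protease, stood at 18.8 CPM, the histamine-forming enzyme Hdc at 3.66 CPM, and Fcer1a, Cma1, Mcpt4 and Tpsb2 were at 0. Its gene lies at chr3:20215620-20242181, and the window shown above held 1 GATA, 1 RUNX, 2 E protein and 2 TATA matches (12.4% of windows held TATA and 14.1% RUNX).

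Stem and progenitor genes were almost wholly at 0. Of 23 genes, 21 had no UMI (91.3%, against 54.8% of all genes), including Kit, Cd34, Flt3, Ly6a, Meis1 and Hoxa9. Of 17 B cell genes, 14 were at 0, including Cd79a and Pax5, and the 1 gene past 10 CPM was Xbp1 (55.96 CPM), a secretory factor that many cell types use. Of 24 erythroid and megakaryocyte genes the 1 gene past 10 CPM was the transferrin receptor Tfrc (360 CPM), which growing cells carry in general. Dendritic cell genes included 1 past 10 CPM, Bst2 (12.03 CPM), with H2-Aa, H2-Ab1, Cd74 and Siglech at 0. Of 16 non-blood genes 15 were at 0 and Pecam1 had 15.7 CPM.

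At the cell surface, 25.2% of 460 listed genes reached 10 CPM, against 29.97% of all genes. Of the 460, 237 were at 0 (51.5%, near the 54.8% of all genes). The highest was Ptprcap, the small partner of CD45, at 607 CPM (572 to 643). UMIs were found for MHC class I genes and not for the class II genes named below. B2m stood at 405 CPM (377 to 435), H2-D1 at 355 CPM (329 to 383) and H2-K1 at 249 CPM (227 to 272). Without the cell with the fewest UMIs, where H2-D1 reached 2449 CPM, it stood at 347 CPM. H2-Aa, H2-Ab1, H2-Eb1 and Cd74 were at 0.

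Cytokine receptor genes reached 10 CPM in 20 of 59 cases (33.9%), near the 29.97% of all genes. Il18rap, the accessory chain of the interleukin-18 receptor, led with 124.2 CPM (109.2 to 141.3), and its partner Il18r1 had 28.2 CPM. Il2rg, the chain shared by the receptors for interleukins 2, 4, 7, 9, 15 and 21, stood at 103.8 CPM (89.6 to 119.02). Of the chains that pair with it, Il9r had 41.8 CPM, Il4ra 36.6 CPM, Il21r 19.6 CPM and Il15ra 10.5 CPM, while Il7r and Il2rb were at 0. Both chains of the interferon-γ receptor were found, Ifngr2 at 35.04 CPM and Ifngr1 at 23.01 CPM. The receptors of the myeloid growth factors, Csf1r, Csf2ra, Csf3r, Kit and Flt3, were at 0, and Csf2rb had 3 UMIs.

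Chemoattractant receptors reached 10 CPM in 9 of 48 cases (18.8%). The sphingosine phosphate receptor S1pr4, a lymphocyte member of its family, led with 89.95 CPM (77.01 to 104.4). Cx3cr1, the fractalkine receptor, stood at 68.1 CPM (56.8 to 80.7), but its groups ranged from 36.9 to 126.97 CPM. The annotated span of Cx3cr1 overlaps Csrnp1, Gorasp1, Ttc21a, Wdr48 and Xirp1, and whether any of its counts came from these was not tested. Cxcr6 had 21.96 CPM and Cxcr4 21.4 CPM, and Cxcr3, Cxcr5 and Ccr9 were at 0. For adhesion, 22 of 58 genes reached 10 CPM (37.9%, against 29.97% of all genes). They were led by the tetraspanin Cd53 at 344 CPM (318 to 371), by Emb at 223.04 CPM (202.1 to 245) and by Bsg at 210.8 CPM (190.7 to 232), both of which escort monocarboxylate transporters to the membrane. Among integrin chains, Itgb7 had 110.6 CPM, Itgb1 81.3 CPM and Itgb2 50.2 CPM, while the alpha chains Itga4, Itga5, Itgam and Itgax were at 0.

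Of 36 inhibitory and SLAM-family genes, 4 reached 10 CPM (11.1%). Cd47, the signal that holds off phagocytes, stood at 150 CPM (132.7 to 167.9), with groups from 83.4 to 248 CPM. Ly9 followed at 26.1 CPM, Vsir at 17.3 CPM and Btla at 13.1 CPM, and Lag3, Havcr2 and Cd200 were at 0. The TNF receptor family had 2 of 26 genes past 10 CPM (7.69%). These were the T cell costimulator Cd27, at 111.1 CPM (96.4 to 126.8), and Tnfrsf19, at 54.6 CPM, while Fas and Tnfrsf14 were at 0. Toll-like receptors were nearly silent in the table: Tlr12 had 26.1 CPM, and Tlr2, Tlr4, Tlr5, Tlr7 and Tlr9 were at 0.

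Nutrient receptors and transporters were the fullest surface class, with 20 of 26 genes past 10 CPM (76.9%) and 12 past 100 CPM. Tfrc, which brings in iron, stood at 360 CPM (334 to 388). The amino acid carriers included Slc3a2 at 203.7 CPM, Slc38a1 at 200.8 CPM, the cystine carrier Slc7a11 at 185.9 CPM, Slc7a1 at 140 CPM and Slc1a5 at 139.1 CPM. The glucose carriers were lower, Slc2a3 at 71.9 CPM and Slc2a1 at 57.003 CPM. Among Notch, Wnt and guidance receptors, 14 of 44 genes reached 10 CPM (31.8%, near the 29.97% of all genes), led by Lrp10 at 130 CPM and Sema4d at 85.2 CPM. Notch2 had 45.6 CPM and Notch1 was at 0.

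**Figure D2:**
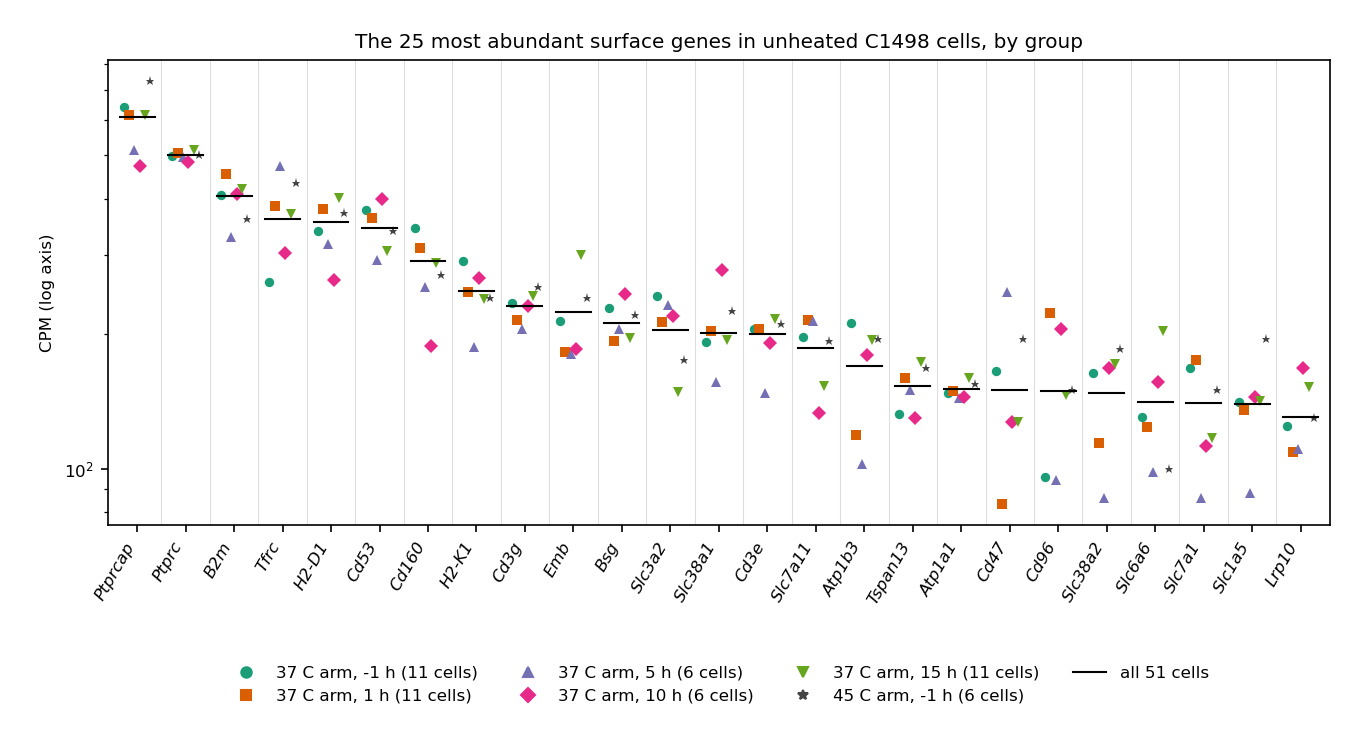
Level in CPM (vertical axis, log scale) of the 25 surface genes with the highest level over the 51 cells, in each of the 6 unheated groups (symbols) and over all cells (black lines). Ptprc kept within 482 to 512 CPM in all groups, while Cd47 ranged from 83.4 to 248 CPM.

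Transcription factor lists held 362 genes, some of which encode cofactors or general RNA- and DNA-binding proteins, and 50.8% of them reached 10 CPM (against 29.97% of all genes). The highest were of that general kind: the cold shock protein gene Ybx1 at 1694 CPM, Hmgb1 at 1236 CPM and Hmgb2 at 783 CPM. With whole values only, Hmgb1 stood at 232.5 CPM, under Hmgb2 (892 CPM) and Atf4 (796 CPM). Of 46 T-lineage factors, 28 reached 10 CPM (60.9%) and 11 were at 0. Tcf7, a Wnt-pathway factor of T cell progenitors, led with 452 CPM (422 to 483). Its group values had a lowest of 336 CPM, a median of 410 CPM and a highest of 776 CPM, the last in the 45 °C arm before its heating. Ikzf1, the zinc finger factor Ikaros, stood at 274 CPM (251 to 299). Gata3, which T cell development requires, stood at 231 CPM (210 to 254), with groups from 134.7 to 301 CPM.

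Further T-lineage factors were Ikzf2 at 143.8 CPM, the chromatin organizer Satb1 at 132.8 CPM and the repressor Bach2 at 130 CPM. Runx3 had 92.5 CPM, Bcl11b 26.7 CPM and Tox 26.7 CPM. Of factors known for effector and regulatory fates of T cells, Tbx21, Eomes and Foxp3 were at 0, while Gata3 and Runx3 had the levels given above and Rora had 14.6 CPM. Of 49 myeloid and progenitor factors, 34 were at 0 (69.4%) and 8 reached 10 CPM (16.3%). The 8 were Zfpm1 (93.9 CPM), a GATA cofactor, Fli1 (77.9 CPM), Pbx3, Cebpz, Cebpg, Pbx2, Cebpb and Gfi1, which are not restricted to myeloid cells. Spi1, Cebpa, Cebpe, Irf8, Gata1, Gata2, Hoxa9 and Hoxa10 were at 0.

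Among factors of growth and signaling, 48 of 66 in the Myc, E2F and growth list reached 10 CPM (72.7%), with Tfdp1 at 152.97 CPM, E2f4 at 110 CPM and Myc at 70.6 CPM. Of the NF-κB, STAT, IRF and AP-1 genes 25 of 46 did (54.3%). Atf4, which drives amino acid synthesis and transport genes, led that list with 604 CPM (569 to 639) and groups from 463 to 857 CPM. Jund followed at 205.3 CPM and Nfkb1 had 93.6 CPM, while Jun, Egr1 and Atf3, which cells make quickly after a stimulus, were at 0. Foxp1, which acts in B cells and in quiescent T cells, stood at 318 CPM (293 to 344).

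**Figure D3:**
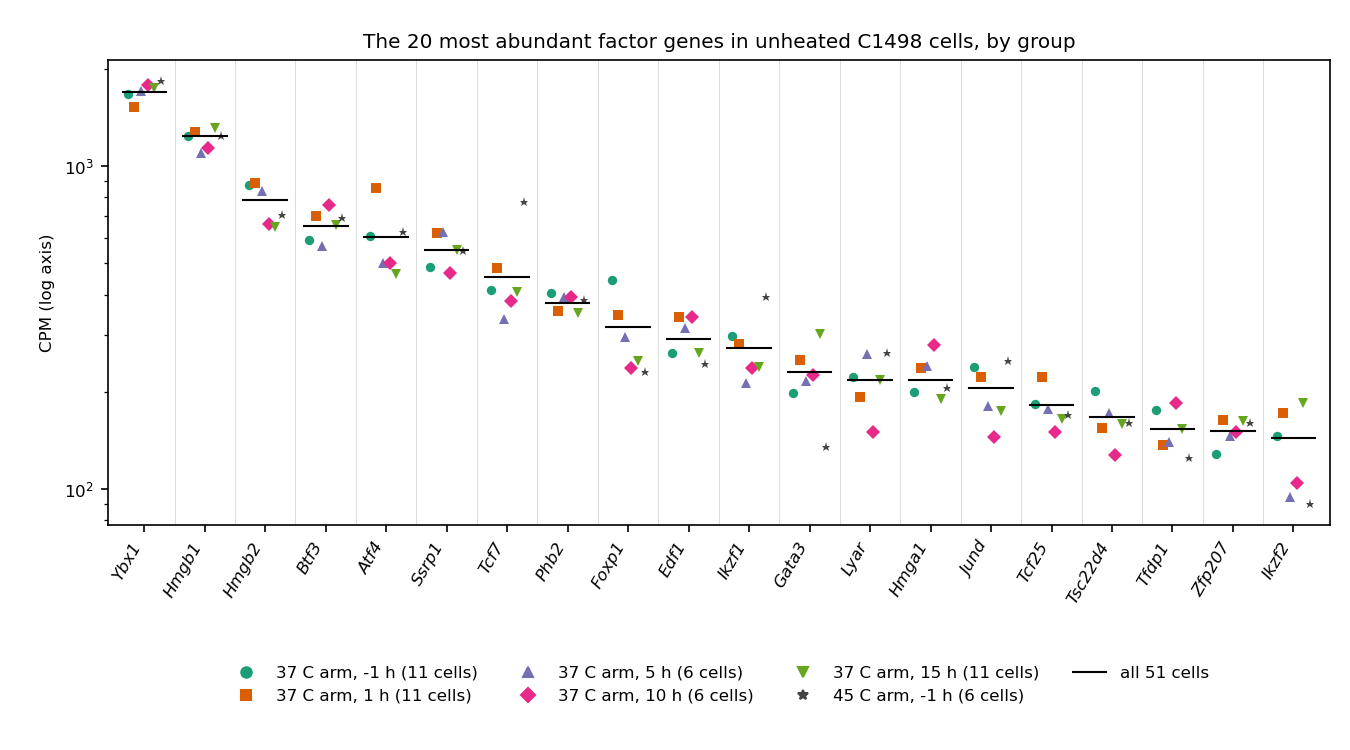
Level in CPM (vertical axis, log scale) of the 20 factor genes with the highest level over the 51 cells, in each of the 6 unheated groups (symbols) and over all cells (black lines). Tcf7 reached 776 CPM in the 45 °C arm before its heating and lay between 336 and 484 CPM in the other 5 groups.

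Genes of protein synthesis took large shares of the UMIs. Rn45s, the precursor of ribosomal RNA, took 12.5% of all UMIs, with single cells from 5.90% to 21.4% and a median of 11.7%. Of its UMIs, 62.8% were in values that were not whole. With whole values only it stood at 61377 CPM in place of 124900 CPM. The table counts RNA that was primed on stretches of A, and how this transcript was primed was not tested. Ribosomal protein genes took 19.7% of UMIs, with groups from 18.4% to 20.6%, and filled 38 of the 50 highest ranks. Translation factors added 3.06%, among them Eef1a1 at 3864 CPM and Eef1b2 at 2085 CPM, and the ribosome-bound scaffold gene Rack1 had 2380 CPM. With whole values only, Eef1a1 stood at 426 CPM, under Rack1 (2252 CPM) and Eef1b2 (2385 CPM). Nucleolar and RNA-binding genes added 2.88%, among them Ncl at 2115 CPM and Npm1 at 1907 CPM.

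Outside the ribosome, actin and chaperone genes filled the highest ranks. Actb stood at 9188 CPM, with groups from 8113 to 10612 CPM, but 73.1% of its UMIs were in values that were not whole. With whole values only it stood at 3255 CPM, under Hsp90ab1 (3346 CPM) and Tmsb4x (3264 CPM). The actin-binding peptides Tmsb4x and Tmsb10 had 4118 and 3165 CPM, and Actg1 had 2945 CPM. Chaperones took 2.51% of UMIs at rest, led by Hsp90ab1 at 4933 CPM, the proline isomerase Ppia at 2784 CPM and Hspa8 at 2735 CPM. Respiratory chain genes took 2.51% and glycolysis genes 0.576%. Lrrc17, a secreted leucine-rich repeat protein studied mainly in bone, ranked among these housekeeping genes at 2291 CPM.

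Cytokine genes were few: 10 of 80 reached 10 CPM (12.5%). Mif, a cytokine with isomerase activity, stood at 1091 CPM (1045 to 1139) and had a UMI in all 51 cells. Il16, which is stored as a precursor in lymphocytes, stood at 116.1 CPM (101.3 to 132.4). The vascular growth factors Vegfb and Vegfa had 34.5 and 30.3 CPM, and Spp1, Flt3l, Tnfsf11 and Cd40lg lay between 23.01 and 27.2 CPM. Of 81 genes mutated or misused in leukemia, 58 reached 10 CPM (71.6%), with the splicing factor genes Srsf2 at 473 CPM and U2af1 at 306 CPM and the D-type cyclin Ccnd3 at 349 CPM. The tumor suppressor genes Trp53 and Cdkn2a were also present, at 90.7 and 96.2 CPM.

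Every listed cell cycle gene reached 10 CPM, 39 of 39 for S phase and 46 of 46 for G2 and M. The S phase list, led by the replication clamp Pcna (428 CPM) and the helicase subunit Mcm7 (360 CPM), took 0.541% of all UMIs. The G2 and M list, led by Top2a (486 CPM) and Mki67 (327 CPM), took 0.561%. In single cells the S phase share ran from 0.129% to 0.907% with a median of 0.554%, and the G2 and M share from 0.0644% to 0.959% with a median of 0.581%. Cells rich in one list tended to be poor in the other (Pearson r = -0.549 over 51 cells, -0.722 without the cell with the fewest UMIs). Both shares come from the same total in each cell, and they also varied with that total (r = -0.268 for S phase and 0.35 for G2 and M, or -0.405 and 0.288 without that cell). The cell with the fewest UMIs was lowest in both lists together, at 0.193% against at least 0.704% in all others.

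Clustered histone genes, whose RNAs are made during S phase, took a median of 0.189% of a cell's UMIs. Of 64 such genes, 6 reached 10 CPM (9.38%, against 29.97% of all genes). The table counts RNA primed on stretches of A. How histone RNAs were primed was not tested, so this share is not a direct measure of S phase. Of the 51 cells, 35 lay above 0.1%, 5 between 0.05% and 0.1%, and 11 under 0.05%. Those 11 cells had S phase shares of 0.271% to 0.489% and G2 and M shares of 0.470% to 0.959%. All 11 lay under the median S phase share of 0.554%. The histone share also varied with the cell's total UMIs (r = -0.316, or -0.363 without the cell with the fewest UMIs). The cells with the most UMIs, 91095 and 74213, were among the 11. The list rested on Hist1h2ao (633 CPM) and Hist1h2ap (533 CPM), near-identical genes for which 99.8% of UMIs were in values that were not whole, so their split between genes is uncertain.

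**Figure D4:**
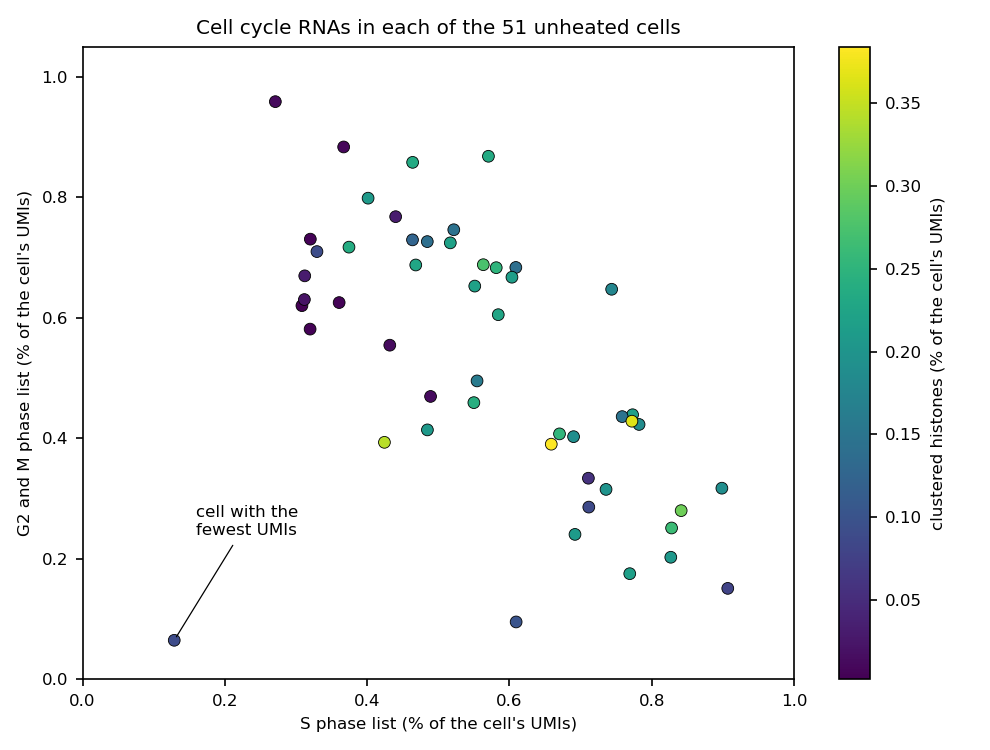
Share of each cell's UMIs in the S phase list (horizontal axis, percent) and in the G2 and M phase list (vertical axis, percent), 1 point for each of the 51 unheated cells, colored by the share in clustered histone genes. The cells spread from high G2 and M at low S phase to the reverse, the 11 cells with the least histone RNA lie at S phase shares up to 0.489%, and the cell with the fewest UMIs lies apart near the origin.

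Cell-to-cell spread was measured by the Fano factor, the variance over the mean, after every cell had been thinned to 5000 UMIs. Counting alone gives a value of 1. Over 1685 genes with a mean of at least 0.5 UMI the median was 1.10, and 44 genes (2.61%) reached 2. Within groups the median was 1.09 and 42 genes reached 2. Genes under that mean were not measured, and thinning draws every Fano factor toward 1, so a value near 1 does not show that cells were alike. Of the 44 genes, 23 (52.3%) were highest in the cell with the fewest UMIs, as were 17.4% of all 1685. Without that cell, 19 genes reached 2.

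The highest Fano factor was that of Rn45s, at 45.0, or 38.6 without its highest cell. For this gene 62.8% of UMIs were in values that were not whole. Lrrc17 came next, at 16.04, and at 13.7 without its highest cell. For a given relative spread this factor rises with the mean, which after thinning was 606 UMIs for Rn45s and 11.8 for Lrrc17. The order of Fano factors is therefore not an order of relative spread. Single cells ran from 0 to 13031 CPM for Lrrc17 with a median of 1187 CPM, and 46 of 51 cells had a UMI. The groups ranged from 1130 to 4193 CPM, and within groups the Fano factor was 15.8, so nearly all of the spread lay between cells of the same group. Lrrc17 (chr5:21543559-21575904, plus strand) lies inside Fbxl13 (minus strand), and 46.9% of its UMIs were in values that were not whole. Rn4.5s, a small rodent RNA, had 5.13, or 4.34 without its highest cell. The actin genes stayed past 2 as well: Tmsb4x had 3.96 and 3.60, Actg1 3.84 and 2.65, and Actb 3.32 and 2.77, with all cells and without the highest cell of each. Hist1h2ao had 2.90 and 2.502.

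For 8 more of the 15 genes with the highest Fano factors, the highest cell was the one with the fewest UMIs. Of these 8 genes, 7 fell under 2 without it. Zfp575, a zinc finger gene, had 9.37 with that cell, where it reached 6573 CPM, and 1.37 without it. Hmgcs1, an enzyme of cholesterol synthesis, had 7.78 and 1.11. Ftl1, the ferritin light chain, was the exception, with 6.85 and 3.90, and 81.6% of its UMIs were in values that were not whole. The endoplasmic reticulum chaperone Hspa5 had 4.31 and 1.18, and the MHC class I loading gene Tapbp 3.25 and 1.02. The vesicle coat cargo receptor Tmed2 had 2.995 and 1.38, and H2-D1 2.96 and 1.28. At the other end, the lowest values among genes with a mean of at least 5 UMIs were those of the ribosomal protein genes Rps13 (0.634), Rps4x (0.729), Rps23 (0.767) and Rpl9 (0.768), followed by Fau, Mif (0.906), Rps3 and Hmgb1 (0.976). Of these, 88.9% of the UMIs of Rps23 and 85.7% of those of Hmgb1 were in values that were not whole. Such low Fano factors did not extend to ribosomal protein genes as a class. The 83 that were measured had a median Fano factor of 1.33, against 1.10 for all measured genes, and 6 reached 2.

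**Figure D5:**
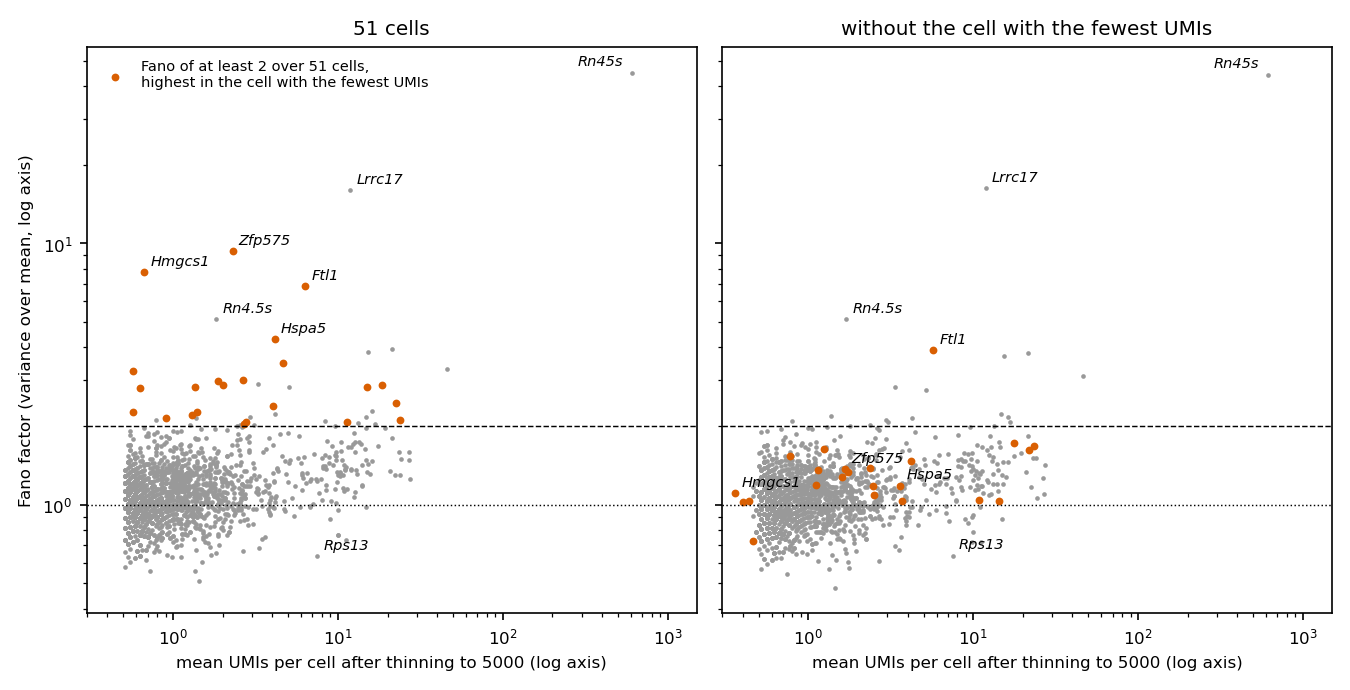
Fano factor (vertical axis, log scale) against mean UMIs per cell after thinning to 5000 UMIs (horizontal axis, log scale) for 1685 genes, over all 51 cells (left) and without the cell with the fewest UMIs (right). The dotted line is the value of 1 that counting gives and the dashed line is 2, and most orange points, genes past 2 that were highest in that cell, drop under 2 on the right.

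Fano factors of lineage genes could be measured only for those with enough UMIs. Among general leukocyte genes, none of 13 reached a Fano factor of 2 and the median was 1.08. Ptprc had 1.29, Coro1a 1.32, Cd3e 1.32, Cd3g 1.00, Tcf7 1.04 and Gata3 1.48. Cpa3 lay near 2, at 1.99 over all cells, 1.93 without its highest cell, 2.02 without the cell with the fewest UMIs and 2.19 within groups. Its single cells ran from 47.3 to 2278 CPM. In thinned cells, Ptprc had a UMI in 48 of 51 cells (94.1%, exact Clopper-Pearson interval 83.8% to 98.8%), Cd3g in 32 (62.7%, 48.1% to 75.9%) and Cd3e in 29 (56.9%, 42.2% to 70.7%). Unthinned, these RNAs were in 51, 49 and 51 cells, so the lower shares after thinning go with fewer UMIs.

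Some surface genes were found in fewer cells than their level would give. If a gene had the same level in every cell, the number of cells with a UMI would follow from the cells' totals alone, and for the 7426 genes at 10 CPM or more the observed number was a median of 0.9751 of that number. For 73 of them (0.983%) it was under 0.7. Among the surface genes past 10 CPM it was under 0.7 for 10 (8.62%), and among the factor genes for 3 (1.63%). This measure was chosen after the values had been seen. Mcpt8, Il21r and Rora, all under 0.7, reached 10 CPM only through the group in which each was highest. Their low numbers were therefore favoured by the choice of genes.

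Klrd1, the CD94 chain of natural killer receptors, was in 15 cells where 38.1 were expected. Its level was 40.5 CPM, with groups from 2.25 to 124.8 CPM. The glycoprotein gene Cd24a was in 24 cells against 43.4, Cd7 in 24 against 43.04, the costimulator Cd28 in 24 against 39.4, Fcgr3 in 25 against 41.04 and Cx3cr1 in 30 against 45.2. Each of these genes was seen in part of the cells. The overlap that independent genes would give was not computed, so the shared cells below are counts only. The levels of Fcgr3 and Klrd1 had r = -0.023 over the 51 cells. Fcgr3 and Klrd1 shared 9 cells, with 16 holding Fcgr3 alone, 6 Klrd1 alone and 20 neither. Cd7 and Cd24a shared 7 cells, with 17 holding each alone and 10 neither. In the 37 °C arm, Fcgr3 was seen in 7 of 11 cells before treatment, 3 of 11 at 1 h, 0 of 6 at 5 h, 4 of 6 at 10 h and 7 of 11 at 15 h, and in the 45 °C arm before heating in 4 of 6.

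Mcpt8 was the extreme case, in 4 cells where 24.96 were expected. Cell 2 of the 37 °C arm at 10 h held 28 of its UMIs, or 783 CPM, and without that cell the level over the line fell from 18.8 to 4.26 CPM. The same cell had the highest Cpa3 level of the 51 cells, 2278 CPM, against 1428 CPM in the next cell. It also had the highest Cd3g level, 559 CPM, and 419 CPM of Klrd1. Next in Mcpt8 was cell 6 of the 45 °C arm before heating, with 6 UMIs (142.9 CPM). That cell had 214.4 CPM of Cpa3, under the median cell at 524 CPM, and the highest Klrd1 level, 428.7 CPM. Fcer1a, which mature mast cells and basophils carry, was at 0 in every cell.

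Few genes followed the CD3 genes across cells. Among the genes in the Fano analysis, none reached r = 0.5 with Cd3e over the 51 cells (highest Clcn3, 0.475, and 0.510 without the cell with the fewest UMIs). With Cd3g, the proteasome activator subunit Psme1 had r = 0.560, Sap18b 0.546 and the proline isomerase Ppic 0.506, and without the cell with the fewest UMIs these were 0.508, 0.498 and 0.465. Cpa3 had r = 0.488 with Cd3g over the 51 cells and 0.594 without that cell, above the other 3 genes there. Cell 2 of the 37 °C arm at 10 h was the highest for Cd3g (559 CPM), Cpa3 (2278 CPM), Psme1 (559 CPM) and Ppic (531 CPM). Values of r without it were not computed, so how far they rest on this cell was not tested. Cd3e and Cd3g themselves had r = 0.252. The levels of a pair of genes in these cells share the cell's total and its depth, and at the few UMIs these genes have in each cell, such values are a description only.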

How the data were processed

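Single cells were picked 1 per tube. Per the labels' protocols, spike-in RNA was added, RNA was fragmented by heat and reverse transcribed from a barcoded primer ending in T bases, then amplified by PCR. The authors deposited estimated counts, that is UMIs per gene and cell, not scaled. Of values above 0, 5.32% were not whole, and these held 24.2% of UMIs. The submitters' processing notes name STAR and mm10. The version of STAR, the counter, its annotation, its use of strand and any cell filter were not given in the sources used here. Spike-ins and mitochondrially encoded genes were not analysed here.

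UMIs were summed over the 51 cells or each of the 6 groups and divided by the total (CPM, not divided by length). Sums were rounded for exact Poisson intervals (95%). Intervals cover counting error only. A cell was counted as having a UMI where its value rounded to at least 1. Fano factors and thinned shares used 1 random draw of 5000 UMIs per cell without replacement. This code was tested on simulated data. No cell was removed and no doublet caller was run. Python 3.11.15, numpy 2.4.6, pandas 2.3.3 and scipy 1.17.1 were used.

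Named genes were the 20 most abundant outside ribosomal protein and predicted genes, the 4 highest of each lineage or state list, the 25 highest surface and 20 highest factor genes with the highest 2 of each such list, the 15 highest and 8 lowest Fano factors, all markers, and up to 5 genes correlated with Cd3e or Cd3g (r of at least 0.5). Other members and the genes absent from more cells than expected were named after their values were seen. Members and lists were chosen with earlier results of these data known. Gene symbols are those of the table. Some listed genes count in the totals but are not reported here by name.

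Alternatives tried were the mean of per-cell CPM, whole values only, other totals, thresholds and thinning depths, and leaving out each group, each cell, or the cell with the fewest UMIs (the last added after the values were seen).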

Additional observations from a re-analysis of the deposited data

Results flagged for a closer look

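For the levels of named genes at 10 CPM or more over the 6 groups, and total UMIs over the cells of each 6-cell group, the highest or lowest was compared with its nearest neighbour by Dixon's criterion, which chance exceeds in about 1 of 20 cases. It was exceeded 9 times, in 6.47% of the values compared. That is near the rate that chance alone gives, so no case below shows by itself a difference between groups. In the 37 °C arm at 5 h, Rn45s was the highest group (159560 CPM, next 130380 CPM), and Cd3e (147.7 CPM, next 190 CPM) and Il16 (57.4 CPM, next 116.2 CPM) were the lowest. In the 37 °C arm at 10 h, Tmsb10 (4646 CPM, next 3473 CPM) and Mcpt8 (161.6 CPM, next 29.9 CPM) were the highest. At 15 h, S1pr4 (119.1 CPM, next 89.8 CPM) and Ftl1 (2382 CPM, next 1250 CPM) were the highest. In the 45 °C arm before its heating, Tcf7 (776 CPM, next 484 CPM) and Il21r (104.8 CPM, next 21.3 CPM) were the highest. The Mcpt8 value came from 1 cell. Mcpt8 and Il21r were at 10 CPM or more over the 51 cells only through the group in which they were highest, so these 2 cases were fixed by the choice of genes, and Il21r was named after its values were seen. Without the 45 °C arm, Il21r stood at 9.64 CPM in place of 19.6 CPM, and without the 37 °C cells picked before treatment Rora stood at 8.91 CPM in place of 14.6 CPM.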

How the results depend on the processing

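No paired analysis was possible because cell numbers only name cells and no result comes from a test. With whole values only, the 20 most abundant genes held 12.7% of UMIs in place of 21.1%, the percent of UMIs in Rn45s was 6.14, and ribosomal protein genes held 15.5%. A threshold of 20 CPM left 3 natural killer and 1 myeloid gene. Genes with a Fano factor of at least 2 numbered 77 at 10000 UMIs (50 cells), 15 on scaled CPM without thinning, 19 without the cell with the fewest UMIs, and 24 to 67 with a group left out. Of the named levels, 79.1% moved by more than 1 SD over the groups when the total left out ribosomal protein genes and Rn45s, 63.4% with whole values only, 46.9% with only the 45 °C arm, 21.6% with the mean of per-cell CPM and 19.1% without the cell with the fewest UMIs. With 1 sample a group and 6 to 11 cells in each, no difference between groups could be tested.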
